A study of Homo sapiens with 30 samples.

Results

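The G2 and mitosis genes described here are 35 human genes chosen by name for their known parts in the passage from G2 through cell division, out of 61578 genes in the count tables. The choice was made with earlier results of these data known. All 35 were among the 19982 genes with enough counts to test. By role they comprised 7 genes of mitotic entry (CCNA2, CCNB1, CCNB2, CDK1, CDC25B, CDC25C, PLK1), 7 of the spindle checkpoint and anaphase ubiquitination (BUB1, BUB1B, BUB3, MAD2L1, TTK, CDC20, UBE2C) and 3 of the chromosomal passenger complex (AURKB, INCENP, BIRC5). A further 4 act at the centromere and kinetochore (CENPA, CENPE, CENPF, KIF2C), 7 in spindle assembly (AURKA, KIF11, KIF4A, TPX2, NUSAP1, HMMR, DLGAP5), 5 at the central spindle and in cytokinesis (KIF20A, KIF23, PRC1, ANLN, ECT2) and 2 in chromosome structure (TOP2A, MKI67).

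The study measured poly(A) RNA in 30 libraries, 15 groups of 2, whose labels give A549, a cell line from a human lung adenocarcinoma. It asked how expression changes when RPB1, the largest subunit of RNA polymerase II, is replaced by forms with a mutated C-terminal domain. In the treated degron group, cells whose own RPB1 carries a degron tag had received 100 nM dTAGV-1, which directs the tagged protein to degradation, for 12 h; its label names no doxycycline. In the treated Y1F, S2A, T4V, S5A, S7A and WT groups, lines that carry the same degron together with a doxycycline-inducible RPB1 had received 2 µg/mL doxycycline for 24 h and then 100 nM dTAGV-1 for 12 h. The letters name the residue of the C-terminal repeat that was exchanged, and WT the inducible wild-type RPB1. Each of these 7 lines also had an untreated group, and the Mock group held untreated cells labelled with a wild-type genotype. Whether a line was 1 clone, and whether the 2 libraries of a group came from separate cultures, is not given in the sources used here, so p-values measure the spread between libraries.

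Cyclin B with the kinase CDK1 drives entry into mitosis, with help from CDC25 phosphatases and the kinase PLK1, and the spindle checkpoint then holds the ubiquitin ligase APC/C and its activator CDC20 in check until every chromosome is attached. Transcripts of these genes are known to rise together in G2, through the factors B-MYB, MuvB and FOXM1, which act at a promoter element called the cell cycle genes homology region (CHR), and through NF-Y, which binds CCAAT boxes. Many of these transcripts and proteins are also known to be cleared at the end of each division, so their levels differ between dividing and resting cells.

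Because these genes are known to share promoter elements, 29 of them with a RefSeq promoter window (GRCh38.p14, 250 bases before to 50 after the start) were searched for a CHR, TTTGAA or TTCGAA, and for a CCAAT box, both on either strand. A CHR was found in 21 of the 29 windows (72.4%), against 11.6% of the 13203 windows of tested genes. A CCAAT box was found in 23 windows (79.3%), against 36.0%, and both motifs in 19 windows (65.5%), against 4.83%. Other genes of the same pathway, with 74 windows, lay between, with a CHR in 44.6%, a CCAAT box in 52.7% and both in 24.3%. The 120 bases before the start are shown for 6 genes that span the responses described in the sections that follow: 4 that fell in 5 or more lines (PLK1 at chr16:23678769-23678888, CCNB1 at chr5:69167030-69167149, CDC20 at chr1:43358861-43358980 and BUB1B at chr15:40160949-40161068), 1 that rose in 6 lines under TMM scaling (KIF4A at chrX:70289984-70290103) and 1 that was called in none (KIF11 at chr10:92593010-92593129). All 6 lie on the plus strand; capitals mark the CCAAT boxes and CHR motifs, some of them in reverse complement.
PLK1: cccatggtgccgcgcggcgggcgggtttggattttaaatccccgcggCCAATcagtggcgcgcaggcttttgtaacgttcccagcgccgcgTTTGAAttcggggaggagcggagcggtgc
CCNB1: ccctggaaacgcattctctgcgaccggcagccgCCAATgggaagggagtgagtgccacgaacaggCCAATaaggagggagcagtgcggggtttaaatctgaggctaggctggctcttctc
CDC20: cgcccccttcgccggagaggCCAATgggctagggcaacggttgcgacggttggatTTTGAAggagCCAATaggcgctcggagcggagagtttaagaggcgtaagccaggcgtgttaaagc
BUB1B: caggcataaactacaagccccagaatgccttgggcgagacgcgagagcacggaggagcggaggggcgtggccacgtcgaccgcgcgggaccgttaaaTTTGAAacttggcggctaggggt
KIF4A: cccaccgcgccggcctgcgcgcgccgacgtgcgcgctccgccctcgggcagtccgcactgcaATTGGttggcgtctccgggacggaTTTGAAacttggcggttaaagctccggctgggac
KIF11: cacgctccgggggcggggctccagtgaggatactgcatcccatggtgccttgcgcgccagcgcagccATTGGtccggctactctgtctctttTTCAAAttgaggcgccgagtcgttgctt
Among these 6 stretches, CCNB1 had CCAAT boxes and no match to the CHR letters, BUB1B had a CHR and no CCAAT box, and the other 4 had both. Of the 7 windows of genes that fell in at least 4 lines, 5 held a CHR and 6 a CCAAT box; of the 14 windows of genes that fell in no line, 11 held a CHR and 11 a CCAAT box. In 12 genes a CHR began within the last 60 bases before the start, and in 19 genes a CCAAT box began between 110 and 50 bases before it.

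Libraries held 10866089 to 17912802 counts. The Mock libraries carried the A549 markers (30350 TPM summed over 13 genes, with CDKN2A and CDKN2B, which A549 lacks, at 0), but the other 14 groups did not. Their A549 list summed to 68.6 to 127.7 TPM, with 7 of the 13 genes (KRT7, KRT19, AKR1B10, AKR1C1, AKR1C2, CEACAM6 and SFTPB) under 1 TPM in each. KRT8 (20.8 to 66.8 TPM) and KRT18 (29.1 to 61.5 TPM) were the highest of the 13 there. NAPSA (0.645 to 1.67 TPM, 1.44 TPM in Mock) and SFTPB (0.0438 to 0.927 TPM, 0.0755 TPM in Mock) were low in Mock too. CDKN2A stood at 115 to 168 TPM in the 14 groups. A list of HEK293 or neuronal markers summed to 113 to 697 TPM in those 14 groups, against 8.22 TPM in Mock, so the 7 lines go against their label and are named only by line here. PAX2, of the HEK293 or neuronal list, was low in the 14 groups too (0.351 to 3.55 TPM, 0.354 TPM in Mock). Immune markers summed to at most 0.334 TPM and endothelial markers to at most 3.71 TPM in these groups. Fibroblast markers summed to 7.61 to 21.5 TPM there, against 3.38 TPM in Mock, with COL1A1 at 7.42 to 20.5 TPM. NUSAP1 had 1 to 19 counts a library and PRC1 33 to 78, each with more than 99% of its span covered by another gene on the same strand, and both are uncertain; the other 33 genes had 174 to 13778 counts. POLR2A, which encodes RPB1, rose in the treated S7A, S5A, WT, S2A and Y1F lines by 1.46, 1.43, 1.38, 1.11 and 0.97 on the log2 scale. Its change was 0.55 in the degron line and 0.56 in T4V, and neither passed the test. The degron value turned sign with the authors' factors (-0.31), and the T4V value with mitochondrial scaling (-0.032). Degradation acts on the protein, so the mRNA does not check it.

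After treatment the mitotic genes split. CCNB1 fell in 7 lines, PLK1, AURKA, AURKB and BUB3 in 6, and BUB1B, CDC20 and CENPA in 5, while CDK1, BUB1, CENPE, DLGAP5, HMMR, KIF11 and PRC1 were called in no line. KIF4A rose in all lines but WT, a direction that turned in 4 of those lines with the authors' factors and in S5A also with mitochondrial scaling. Here fell and rose mean a change relative to the other RNA of the same library (TMM scaling) that passed an adjusted p of 0.05 in edgeR's quasi-likelihood test. In the degron line 12 of the 35 genes fell and 4 rose, where 21.4% of all tested genes fell and 23.1% rose. In Y1F 10 fell and 2 rose, where 21.0% and 23.1% of all genes did, so the falls were not far above that share. In S5A 17 fell and 2 rose, beside 24.2% and 25.5%, and in S7A 16 fell and 2 rose, beside 17.1% and 17.8%.

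The remaining lines differed from that split. In S2A 7 genes fell and 2 rose (all genes 18.2% and 17.0%); without the untreated S2A replicate 1 or the treated S2A replicate 2 the counts were 4 fallen and 1 risen. The balance in S2A turned with other choices, to 8 fallen and 10 risen in a fit of only the S2A groups. It was 4 fallen and 6 risen when genes averaging under 5 CPM were left out, a filter that gave 10 fallen and 3 risen in S5A, 9 and 3 in S7A and 8 and 5 in Y1F. In T4V 5 genes fell and 10 rose (all genes 14.0% and 14.8%). Under mitochondrial scaling 17 fell and 1 rose in T4V, and with the authors' factors 9 fell and 1 rose. The T4V count moved with single libraries: 3 fell and 4 rose without the untreated T4V replicate 1 or the treated replicate 1, 3 fell and 5 rose without the treated replicate 2, and 4 fell and 16 rose without the untreated replicate 2. In the WT line 3 genes fell and none rose (all genes 1.84% and 3.09%). At an unadjusted p under 0.05 edgeR gave 10 fallen and 1 risen in WT, and DESeq2 called 4 fallen and none risen. Fits of only the groups compared gave 3 fallen and 5 risen in T4V, 7 and 2 in S7A and none in WT. Without the untreated WT replicate 2 no gene was called, and in S7A 10 fell and 1 rose without the untreated S7A replicate 1.

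**Figure D1:**
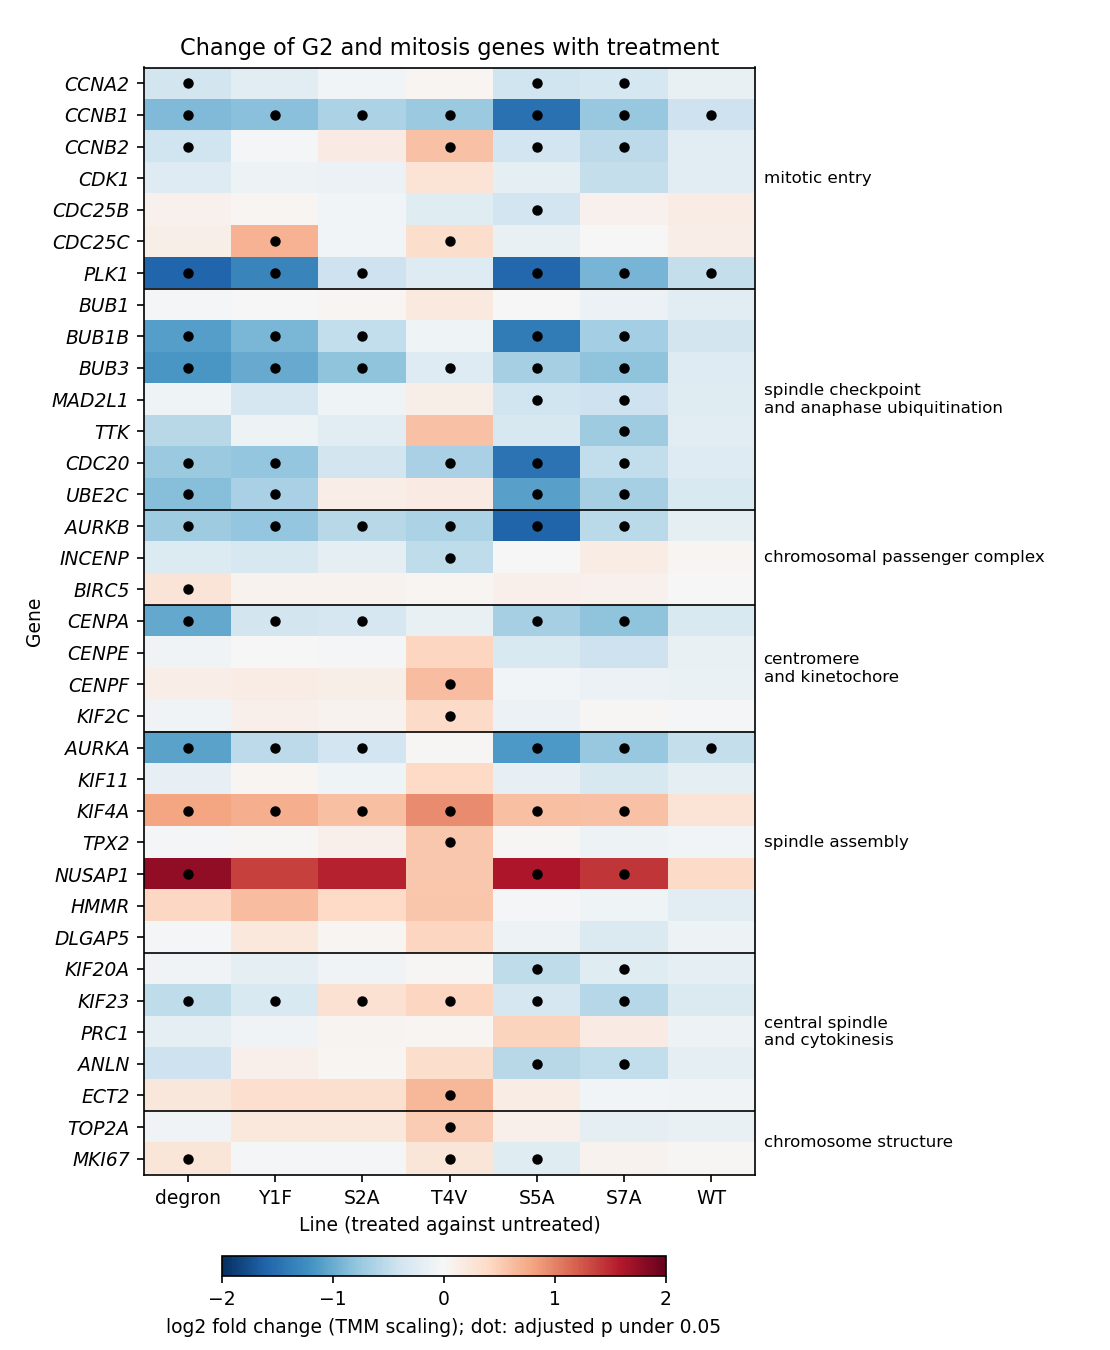
Log2 fold change (treated over untreated, TMM scaling, colour scale) of the 35 genes (vertical axis, ordered by role) in the 7 lines (horizontal axis), with marks on changes that passed an adjusted p of 0.05. CCNB1 is marked as fallen in all 7 lines, and KIF4A as risen in 6, of which 4 turn sign with the authors' factors.

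The median of the 35 log2 changes was lowest for S7A (-0.32) and S5A (-0.30), followed by WT (-0.19) and the degron line (-0.17). It was -0.03 for both Y1F and S2A and 0.24 for T4V, and the median over all tested genes lay between -0.01 and 0.05 by line. The 35 genes summed to 3920 ± 338 TPM in treated degron libraries, against 5343 ± 356 TPM in untreated ones (SD, n = 2 each, as for the sums that follow). In S5A they summed to 4006 ± 6.64 TPM treated and 5781 ± 77.1 TPM untreated, and in T4V to 5502 ± 51.5 TPM treated and 5565 ± 438 TPM untreated. The T4V sums overlapped, with the 2 untreated T4V libraries at 5256 and 5875 TPM, the widest gap between the replicates of any group. In bulk RNA, fewer cells in G2 or mitosis and less RNA per such cell cannot be told apart. Markers of the HEK293 or neuronal list also fell on treatment, 5 of 5 in the degron line (median log2 change -1.63) and 3 or 4 of 5 in each of the other lines. Of all tested genes 21.4% fell in the degron line, 14.0% (T4V) to 24.2% (S5A) in the mutant lines and 1.84% in WT. The part of these markers in the changes was not tested.

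How many genes fell depended on the scaling. Scaled to the 13 mitochondrial mRNAs, the median of all genes shifted to between -0.70 and -0.17 by line, and with the factors behind the authors' deposited tables to between -0.92 and -0.19. A change of scaling moves all genes of a comparison by nearly the same amount, so the members move with the rest. The positive T4V median of 0.24 turned to -0.35 under mitochondrial scaling and -0.22 with the authors' factors. With mitochondrial scaling 27, 20, 26, 17, 32, 28 and 12 of the 35 genes fell in the degron, Y1F, S2A, T4V, S5A, S7A and WT lines, beside 42.5%, 36.7%, 46.1%, 48.3%, 56.8%, 38.3% and 9.48% of all genes. With the authors' factors 32, 31, 22, 9, 32, 33 and 3 fell, beside 60.8%, 60.0%, 43.9%, 33.7%, 62.5%, 61.4% and 1.90%. Falls called under TMM, DESeq2, mitochondrial and authors' scaling alike numbered 12 in the degron line, 14 in S5A, 12 in S7A, 10 in Y1F, 7 in S2A, 5 in T4V and 3 in WT, beside 21.3%, 21.6%, 14.8%, 19.2%, 16.1%, 14.0% and 1.37% of all genes in these lines in that order. The 7 falls in S2A and 5 in T4V were near these shares. The sole rise called under all 4 was KIF4A in T4V, where 4.03% of all genes rose under all 4. Mitochondrial and authors' scaling moved the changes of all genes down. In the degron and mutant lines a fall called under TMM could thus hardly be lost under them, while a rise could. Agreement over the 4 scalings therefore adds little for falls there.

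Some calls held whichever 1 of the line's 4 libraries was left out. In the degron line these were 11 of 16 (CCNB1, PLK1, CDC20, BUB3, BUB1B, UBE2C, AURKA, AURKB, CENPA, KIF23 and KIF4A). In Y1F they were 10 of 12, the same genes except KIF23 and CENPA, with CDC25C added. In S5A they were 12 of 19, the same genes as in the degron line except KIF23, with CCNB2 and KIF20A added. In S7A they were 10 of 18 (CCNB1, CCNB2, PLK1, BUB3, BUB1B, UBE2C, AURKA, CENPA, KIF23 and KIF4A), in S2A 4 of 9 (CCNB1, BUB3, AURKA and KIF4A) and in T4V 5 of 15 (CCNB1, CCNB2, CDC20, TPX2 and KIF4A). None of the 3 WT calls held, so the calls not listed here ended without at least 1 library.

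**Figure D2:**
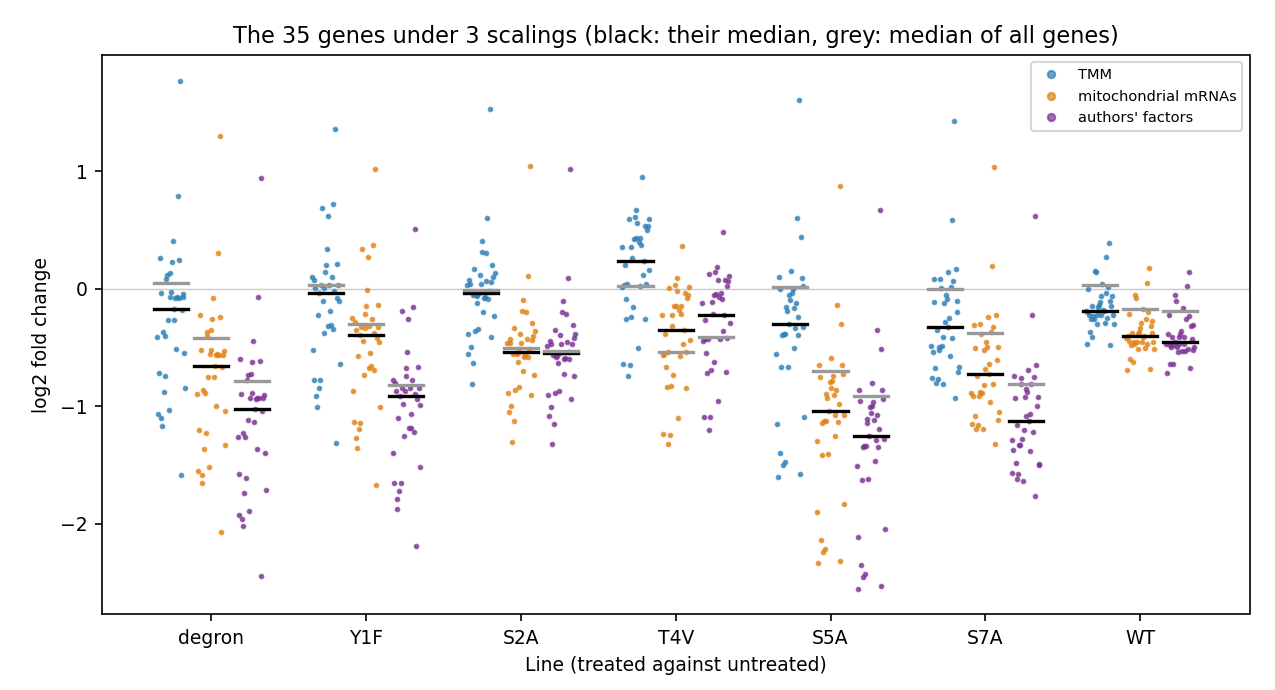
Log2 fold change (treated over untreated, vertical axis) of the 35 genes in the 7 lines under 3 scalings, each point a gene, with the genes' median in black and the median of all tested genes in grey. In T4V the median of the 35 genes is 0.24 with TMM and lies below 0 with the other 2 scalings.

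Among the 7 genes of mitotic entry 5 fell in S5A, 4 in the degron line, 4 in S7A, 2 each in Y1F, S2A and WT, and 1 in T4V, and the lowest values were those of PLK1 and CCNB1. Of all genes 24.2% fell in S5A, 21.4% in the degron line, 17.1% in S7A, 21.0% in Y1F, 18.2% in S2A, 1.84% in WT and 14.0% in T4V. Thus 2 of 7 in Y1F or S2A and 1 of 7 in T4V were near the background. PLK1, the polo-like kinase that promotes CDK1 activation and spindle formation, had 74.7 and 83.1 CPM in the treated degron libraries, against 244 and 229 CPM in the untreated degron libraries. In S5A it had 82.1 and 81.9 CPM in the treated S5A libraries, against 244 and 245 CPM in the untreated S5A libraries. These were log2 changes of -1.58 ± 0.13 in the degron line (3.00-fold lower, adjusted p = 3.74e-09) and -1.57 ± 0.13 in S5A (adjusted p = 3.55e-09; errors after a log2 change are SE). The groups were far apart in both lines, with every treated library below 90 CPM and every untreated one above 220 CPM.

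PLK1 followed with 92.01 and 94.8 CPM in the treated Y1F libraries, against 252 and 213 CPM in the untreated Y1F libraries, a log2 change of -1.32 ± 0.13 (adjusted p = 6.18e-08). In S7A it had 132 and 157 CPM in the treated S7A libraries, against 269.6 and 282 CPM in the untreated S7A libraries, a change of -0.93 ± 0.13 (adjusted p = 9.15e-06). In WT it had 140.4 and 191 CPM in the treated WT libraries, against 234 and 228 CPM in the untreated WT libraries, a change of -0.47 ± 0.12 (adjusted p = 0.0287). Treated and untreated libraries did not overlap in any of these lines, but the WT call rested on single libraries: it ended without the untreated WT replicate 1 (-0.46, adjusted p = 0.175), the untreated replicate 2 (-0.49, adjusted p = 0.146) or the treated replicate 1 (-0.27, adjusted p = 0.204). PLK1 also fell in S2A (-0.41 ± 0.12), and its T4V value was -0.26 ± 0.12 (adjusted p = 0.130).

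CCNB1, the cyclin B1 subunit that activates CDK1, was the sole gene to fall in all 7 lines. It had 79.6 and 74.9 CPM in the treated S5A libraries, against 222 and 214 CPM in the untreated S5A libraries, a log2 change of -1.498 ± 0.084 (adjusted p = 1.54e-11). It had 118 and 114 CPM in the treated Y1F libraries, against 199.7 and 217 CPM in the untreated Y1F libraries, a change of -0.84 ± 0.082 (adjusted p = 7.13e-08). In S7A it had 137 and 125 CPM in the treated S7A libraries, against 230.3 and 213 CPM in the untreated S7A libraries, a change of -0.76 ± 0.082 (adjusted p = 5.76e-07). No treated library of these 3 lines reached an untreated one, and S5A stood lowest.

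In T4V, CCNB1 had 120.5 and 121 CPM in the treated T4V libraries, against 197 and 207 CPM in the untreated T4V libraries, a log2 change of -0.74 ± 0.082 (adjusted p = 1.38e-06). In S2A it had 146 and 148 CPM in the treated S2A libraries, against 229 and 227 CPM in the untreated S2A libraries, a change of -0.63 ± 0.082 (adjusted p = 5.42e-06). In WT it had 147 and 153 CPM in the treated WT libraries, against 198 and 199.6 CPM in the untreated WT libraries, a change of -0.41 ± 0.082 (adjusted p = 0.00454). Treated libraries again lay below untreated ones, and the WT call ended without the untreated WT replicate 2 (-0.40, adjusted p = 0.0629). In the degron line, where CCNB1 also fell, its change was -0.88 ± 0.082.

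The other genes of mitotic entry were called in fewer lines. CDK1, the mitotic kinase itself, was called in no line and ran from -0.48 in S7A to 0.27 in T4V. The cyclin A2 gene CCNA2 fell in the degron, S5A and S7A lines (-0.37, -0.39 and -0.35), with a degron value of -0.58 without the treated degron replicate 1. CCNB2, a second B-type cyclin, fell in the same 3 lines (-0.40, -0.39 and -0.52) and rose in T4V (0.59 ± 0.10), where its change was 0.13 with the authors' factors and 0.0040 with mitochondrial scaling. Its degron call ended without the untreated degron replicate 2 (-0.26, adjusted p = 0.104). Of the phosphatases that remove inhibitory phosphates from CDK1, CDC25C rose in Y1F (0.69 ± 0.12) and T4V (0.36 ± 0.12), though its sign turned with the authors' factors in both lines (-0.19 and -0.11) and with mitochondrial scaling in T4V (-0.22). The T4V call of CDC25C ended without the untreated T4V replicate 1 (0.19, adjusted p = 0.454). CDC25B fell in S5A (-0.38 ± 0.15).

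In the spindle checkpoint, BUB3, a scaffold of checkpoint complexes at kinetochores, fell in all lines but WT. It had 112 and 105 CPM in the treated degron libraries, against 245 and 241 CPM in the untreated degron libraries, a log2 change of -1.17 ± 0.084 (adjusted p = 7.14e-10). It had 137 and 127 CPM in the treated Y1F libraries, against 264 and 265 CPM in the untreated Y1F libraries, a change of -1.004 ± 0.084 (adjusted p = 9.19e-09). All 4 treated libraries lay below 140 CPM and all 4 untreated ones above 240 CPM.

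In S2A, BUB3 had 140.0 and 148 CPM in the treated S2A libraries, against 248 and 256 CPM in the untreated S2A libraries, a log2 change of -0.81 ± 0.084 (adjusted p = 3.35e-07). In S7A it had 175 and 161 CPM in the treated S7A libraries, against 315 and 271 CPM in the untreated S7A libraries, a change of -0.80 ± 0.083 (adjusted p = 3.84e-07). The treated libraries of both lines lay well below the untreated ones. BUB3 also fell in S5A (-0.67 ± 0.083) and T4V (-0.25 ± 0.083, and -0.39 without the untreated T4V replicate 1), and its WT value was -0.26 ± 0.083 (adjusted p = 0.0768).

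BUB1B, which encodes the checkpoint protein BUBR1, had 62.3 and 56.8 CPM in the treated degron libraries, against 116 and 139.8 CPM in the untreated degron libraries, a log2 change of -1.10 ± 0.13 (adjusted p = 8.06e-07). It had 68.4 and 65.1 CPM in the treated Y1F libraries, against 118 and 133 CPM in the untreated Y1F libraries, a change of -0.91 ± 0.13 (adjusted p = 9.82e-06). In S2A it had 86.2 and 101 CPM in the treated S2A libraries, against 136 and 128 CPM in the untreated S2A libraries, a change of -0.50 ± 0.13 (adjusted p = 0.00484). No treated library reached an untreated one in these lines; the S2A call ended without the treated S2A replicate 1 (-0.42, adjusted p = 0.0782). BUB1B also fell in S5A (-1.40 ± 0.13) and S7A (-0.68 ± 0.13), and its T4V value was -0.082 ± 0.13.

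CDC20, the APC/C activator that the checkpoint restrains, had 84.5 and 76.5 CPM in the treated S5A libraries, against 226 and 221 CPM in the untreated S5A libraries, a log2 change of -1.48 ± 0.16 (adjusted p = 1.7e-07). In Y1F it had 125 and 136 CPM in the treated Y1F libraries, against 238 and 209.9 CPM in the untreated Y1F libraries, a change of -0.78 ± 0.16 (adjusted p = 0.000373). In T4V it had 148 and 137 CPM in the treated T4V libraries, against 261 and 184 CPM in the untreated T4V libraries, a change of -0.65 ± 0.16 (adjusted p = 0.00356). Treated libraries lay below untreated ones in all 3 lines, with the 2 untreated T4V libraries wide apart. CDC20 also fell in the degron line (-0.75 ± 0.16) and S7A (-0.49 ± 0.15).

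UBE2C, the ubiquitin-conjugating enzyme of the APC/C, fell in the degron, Y1F, S5A and S7A lines (-0.85, -0.64, -1.09 and -0.66); its S2A and T4V values were 0.14 ± 0.13 and 0.16 ± 0.13. The checkpoint gene MAD2L1 fell in S5A (-0.39 ± 0.15) and S7A (-0.42 ± 0.15), and TTK, which encodes the checkpoint kinase MPS1, in S7A (-0.71 ± 0.23). These calls leaned on single libraries: that of MAD2L1 in S5A ended without any 1 of the 4 S5A libraries (adjusted p 0.0540 to 0.136). In S7A it ended without the untreated S7A replicate 1 (-0.28, adjusted p = 0.346) or the treated replicate 2 (-0.24, adjusted p = 0.393) and was -0.67 without the treated replicate 1. The TTK call ended without the untreated S7A replicate 1 (-0.67, adjusted p = 0.107) or the treated replicate 2 (-0.43, adjusted p = 0.278), and its value was -1.10 without the treated replicate 1. BUB1, the kinase that recruits checkpoint proteins to kinetochores, was called in no line and ran from -0.22 in WT to 0.20 in T4V. Of the 7 genes of this role, 6 fell in S7A, 5 in S5A, 4 each in the degron line and Y1F, 2 each in S2A and T4V and none in WT, and none rose in any line. The 2 of 7 in S2A and T4V are near the share of all genes that fell there (18.2% and 14.0%).

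**Figure D3:**
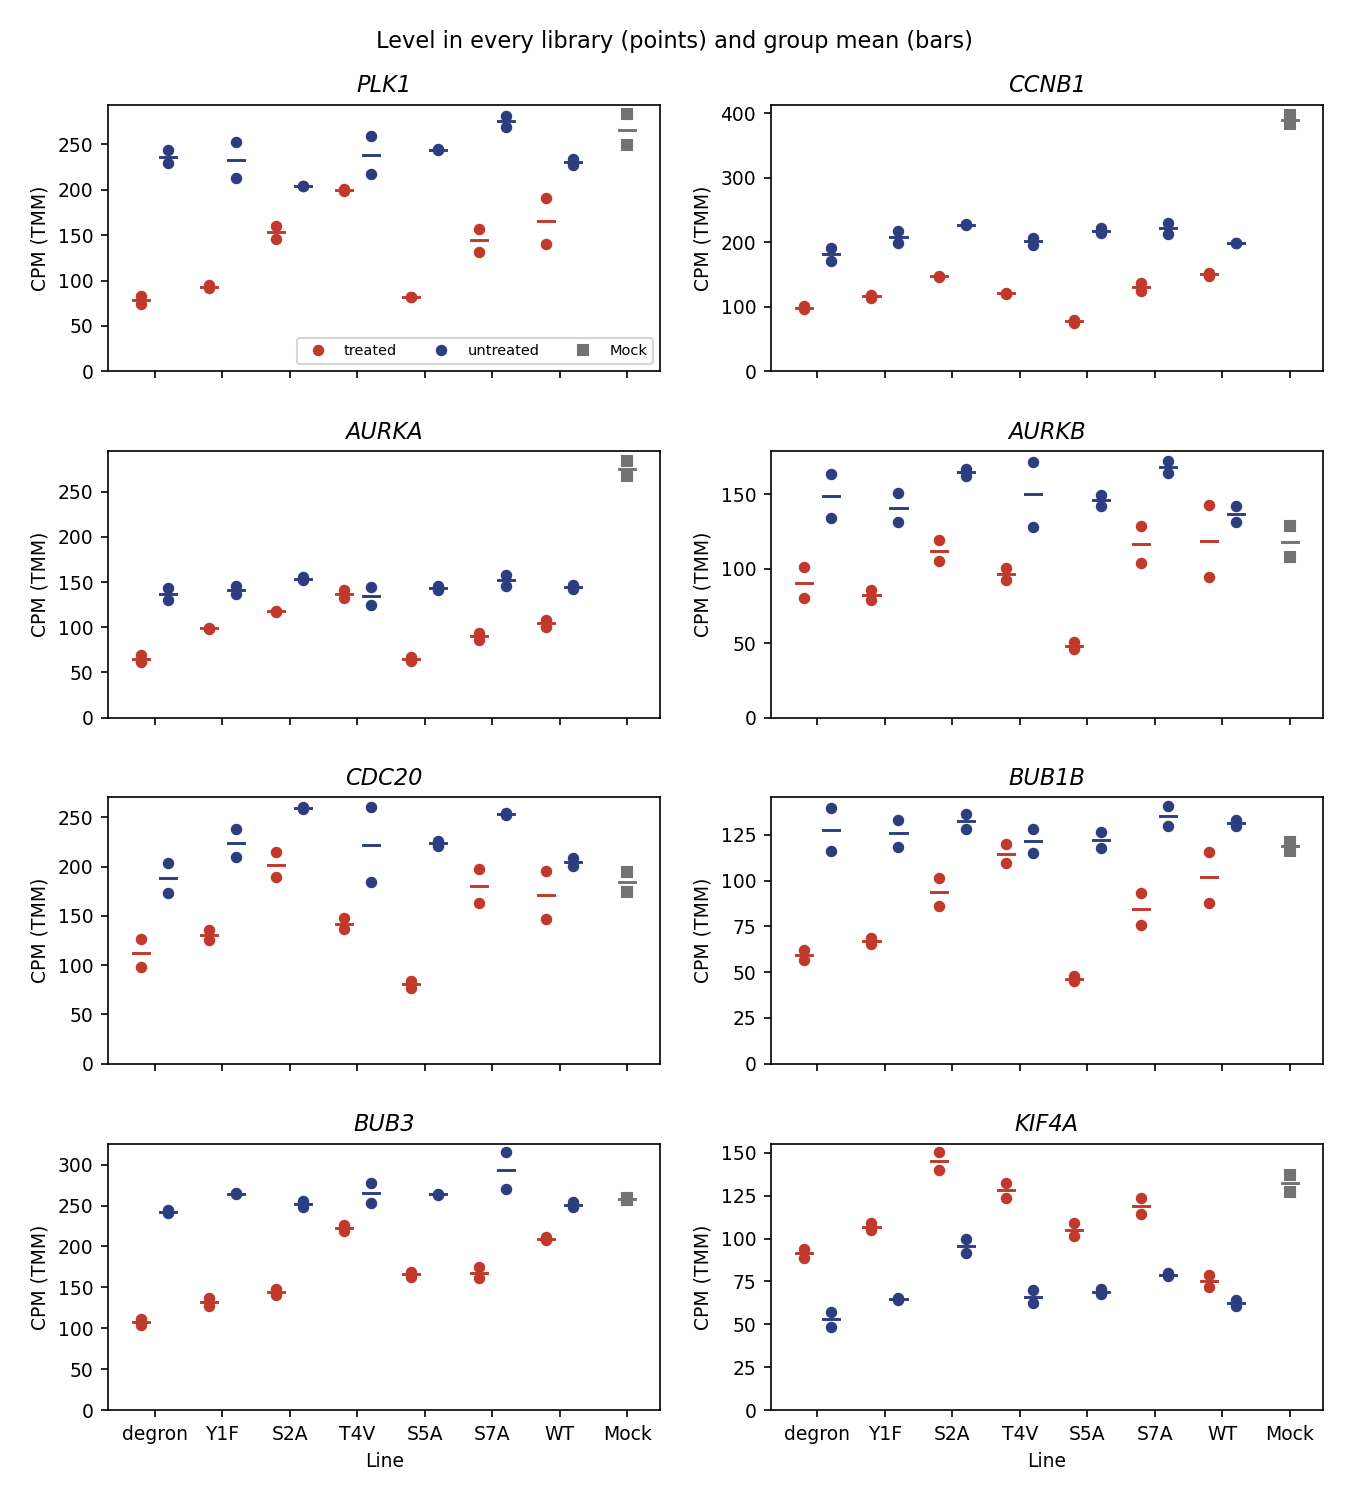
CPM (TMM-scaled, vertical axes from 0) of 8 genes in every library (points), with group means (bars), for treated and untreated groups of the 7 lines and for Mock (horizontal axis). PLK1, CCNB1, AURKA, AURKB, CDC20, BUB1B and BUB3 lie lower in treated S5A than in untreated S5A libraries, and KIF4A lies higher on this scaling, a sign that turns under the other 2.

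Of the listed genes of the chromosomal passenger complex, the kinase gene AURKB fell in all lines but WT, while INCENP and BIRC5 seldom moved with it. AURKB had 45.8 and 50.6 CPM in the treated S5A libraries, against 142 and 149.5 CPM in the untreated S5A libraries, a log2 change of -1.60 ± 0.18 (adjusted p = 2.37e-07). In S2A it had 119 and 105 CPM in the treated S2A libraries, against 167 and 162 CPM in the untreated S2A libraries, a change of -0.55 ± 0.17 (adjusted p = 0.0148). In T4V it had 100.3 and 92.3 CPM in the treated T4V libraries, against 172 and 128 CPM in the untreated T4V libraries, a change of -0.64 ± 0.17 (adjusted p = 0.00761). Treated libraries lay below untreated ones in each line, S5A showed by far the widest gap, and the calls were weak in the other 2 lines. The S2A call ended without the untreated S2A replicate 1 (-0.54, adjusted p = 0.0711) or the treated S2A replicate 2 (-0.50, adjusted p = 0.0838), and the T4V call without the untreated T4V replicate 1 (-0.49, adjusted p = 0.0678). AURKB also fell in the degron (-0.72 ± 0.17), Y1F (-0.78 ± 0.17) and S7A (-0.54 ± 0.17) lines. INCENP, the scaffold of the complex, fell in T4V alone (-0.50 ± 0.18). BIRC5, which encodes survivin, rose in the degron line alone (0.26 ± 0.068), with the sign turned under mitochondrial scaling (-0.22) and the authors' factors (-0.60).

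At the centromere, CENPA, the histone H3 variant that marks centromeres, fell in all lines but T4V and WT. It had 17.8 and 18.0 CPM in the treated S7A libraries, against 33.9 and 29.01 CPM in the untreated S7A libraries, a log2 change of -0.81 ± 0.11 (adjusted p = 1.37e-05). Both treated S7A libraries lay below both untreated ones. The fall was -1.03 ± 0.11 in the degron line, -0.67 ± 0.12 in S5A, -0.37 ± 0.11 in Y1F and -0.34 ± 0.11 in S2A; 46.1% of the span of CENPA is shared with SLC35F6 on the same strand. CENPF, a large kinetochore protein of G2, rose in T4V (0.61 ± 0.14), a call that ended without the untreated T4V replicate 1 (0.35, adjusted p = 0.154) or the treated replicate 1 (0.53, adjusted p = 0.0561). KIF2C, a kinesin that depolymerises microtubules at the centromere, also rose in T4V (0.38 ± 0.080), but its sign turned under mitochondrial scaling (-0.21) and the authors' factors (-0.082). CENPE, the kinetochore motor, was called in no line and ran from -0.41 in S7A to 0.43 in T4V. Each of the degron, Y1F, S2A, S5A and S7A lines had 1 of the 4 genes of this role fallen and none risen, near the shares of all genes that fell there, and T4V had 2 risen, beside 14.8% of all genes.

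In spindle assembly, the kinase gene AURKA fell and the motor gene KIF4A rose. AURKA, which acts at spindle poles, had 69.3 and 61.4 CPM in the treated degron libraries, against 129.8 and 144 CPM in the untreated degron libraries, a log2 change of -1.07 ± 0.095 (adjusted p = 1.68e-08). In WT it had 108 and 101 CPM in the treated WT libraries, against 143 and 147 CPM in the untreated WT libraries, a change of -0.47 ± 0.094 (adjusted p = 0.00444). The groups did not overlap in either line; the WT call ended without the untreated WT replicate 2 (-0.45, adjusted p = 0.0655) or the treated WT replicate 2 (-0.42, adjusted p = 0.0652). AURKA fell in S5A (-1.15 ± 0.096), S7A (-0.76 ± 0.095), Y1F (-0.52 ± 0.094) and S2A (-0.39 ± 0.094), and its T4V value was 0.020 ± 0.094. TPX2, which activates the AURKA protein on the spindle, rose in T4V alone (0.53 ± 0.082), with the sign turned under mitochondrial scaling (-0.053).

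KIF4A, a chromosome-bound kinesin of the spindle midzone, had 133 and 124 CPM in the treated T4V libraries, against 62.3 and 70.1 CPM in the untreated T4V libraries, a log2 change of 0.95 ± 0.098 (adjusted p = 5.81e-07). In S2A it had 140.2 and 150.3 CPM in the treated S2A libraries, against 99.7 and 91.3 CPM in the untreated S2A libraries, a change of 0.60 ± 0.097 (adjusted p = 5.95e-05). All treated libraries lay above all untreated ones in both lines. KIF4A also rose in the degron (0.79), Y1F (0.73), S5A (0.61) and S7A (0.59) lines under TMM, but with the authors' factors its sign turned in those 4 (-0.072, -0.15, -0.35 and -0.23), and in S5A also with mitochondrial scaling (-0.14).

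NUSAP1, a microtubule-bundling protein, rose in the degron (1.77 ± 0.57), S5A (1.61 ± 0.50) and S7A (1.43 ± 0.52) lines on 1 to 19 counts a library. It had 1.04 and 0.983 CPM in the treated degron libraries, against 0.465 and 0.0801 CPM in the untreated degron libraries. In S5A it had 1.43 and 1.41 CPM in the treated S5A libraries, against 0.441 and 0.478 CPM in the untreated S5A libraries, and in S7A 1.36 and 1.03 CPM in the treated S7A libraries, against 0.329 and 0.553 CPM in the untreated S7A libraries. Treated libraries lay above untreated ones in these 3 lines. The degron value was 3.51 without the untreated degron replicate 1, and its call ended without the untreated degron replicate 2 (1.10, adjusted p = 0.167) or the treated replicate 1 (1.66, adjusted p = 0.0627). The S5A and S7A calls ended without any 1 of their 4 libraries (adjusted p 0.0519 to 0.0755 in S5A and 0.0560 to 0.233 in S7A). The spindle motor KIF11 and the spindle proteins HMMR and DLGAP5 were called in no line, although HMMR had changes up to 0.62 ± 0.26 in Y1F (adjusted p = 0.0593).

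At the central spindle, KIF23, a subunit of the centralspindlin complex, moved in both directions. It fell in the degron (-0.51 ± 0.10), Y1F (-0.30 ± 0.10), S5A (-0.33 ± 0.10) and S7A (-0.57 ± 0.10) lines and rose in S2A (0.30 ± 0.10) and T4V (0.44 ± 0.10), where its sign turned under mitochondrial scaling (-0.19 and -0.14) and the authors' factors (-0.21 and -0.033). The T4V call of KIF23 ended without the untreated T4V replicate 1 (0.24, adjusted p = 0.202). ECT2, the exchange factor that starts furrow formation, had 213 and 207 CPM in the treated T4V libraries, against 105 and 159 CPM in the untreated T4V libraries, a log2 change of 0.67 ± 0.22 (adjusted p = 0.0246). The untreated T4V libraries differed widely, and the call ended without the untreated T4V replicate 1 (0.32, adjusted p = 0.403), the treated replicate 1 (0.60, adjusted p = 0.147) or the treated replicate 2 (0.63, adjusted p = 0.132). ANLN, which encodes the furrow protein anillin, fell in S5A (-0.55) and S7A (-0.48), as did the midzone kinesin gene KIF20A (-0.51 and -0.24). The S7A value of ANLN was -0.73 without the treated S7A replicate 1 and -0.31 (adjusted p = 0.347) without the treated replicate 2. Of the chromosome structure genes, TOP2A, the topoisomerase that untangles sister chromatids, rose in T4V (0.50 ± 0.17), with the sign turned under mitochondrial scaling (-0.076). The TOP2A call ended without the untreated T4V replicate 1 (0.20, adjusted p = 0.524), the treated replicate 1 (0.43, adjusted p = 0.204) or the treated replicate 2 (0.47, adjusted p = 0.163), and its value was 0.76 without the untreated replicate 2. MKI67, the chromosome surface protein Ki-67, rose in the degron line (0.24) and T4V (0.24), with both signs turned under mitochondrial scaling (-0.24 and -0.35) and the authors' factors (-0.62 and -0.22), and fell in S5A (-0.24). The degron call of MKI67 ended without the treated degron replicate 1 (0.14, adjusted p = 0.286), and its T4V call without the untreated T4V replicate 1 (0.11, adjusted p = 0.480) or the treated replicate 1 (0.15, adjusted p = 0.354).

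The difference in change asks whether a line responded otherwise than another. For WT minus degron, 6 genes had a higher change in WT and 1 a lower one, where 8.24% of all genes were higher and 3.79% lower. For PLK1 the change was -0.47 in WT and -1.58 in the degron line, a difference of 1.11 ± 0.18 (adjusted p = 0.000228). For BUB3 the change was -0.26 in WT and -1.17 in the degron line, a difference of 0.91 ± 0.12 (adjusted p = 2.47e-05), and for CENPA it was -0.30 and -1.03, a difference of 0.73 ± 0.16 (adjusted p = 0.00356). AURKA (0.59), BUB1B (0.73) and CCNB1 (0.47) also had less negative changes in the line with inducible wild-type RPB1, where PLK1, AURKA and CCNB1 fell and BUB3, CENPA and BUB1B were not called. All 6 calls held under the 4 scalings, and those of PLK1, BUB3, CENPA and AURKA also without any 1 library. KIF4A differed the other way (-0.52 ± 0.14), with the sign turned under the authors' factors (0.097). With these factors 16 genes were higher and none lower, while the median of all genes was 0.634. Mitochondrial scaling moved that median to 0.277, so a higher call could hardly be lost under either scaling. The WT libraries also differ from the degron libraries in doxycycline, which cannot be told apart from the inducible RPB1 here.

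Between S5A and WT, 8 genes were lower and none higher, where 11.7% of all genes were lower and 6.40% higher; at an unadjusted p under 0.05 edgeR gave 12 lower and 1 higher, and DESeq2 called 8 lower and 1 higher. For AURKB the change was -1.60 in S5A and -0.20 in WT, a difference of -1.40 ± 0.24 (adjusted p = 0.000432). For CDC20 the change was -1.48 in S5A and -0.26 in WT, a difference of -1.22 ± 0.22 (adjusted p = 0.000622), and for PLK1 it was -1.57 and -0.47, a difference of -1.10 ± 0.18 (adjusted p = 0.000197). CCNB1 (-1.09), BUB1B (-1.03), UBE2C (-0.79), AURKA (-0.68) and BUB3 (-0.41) were also lower. All but BUB3 were called under the 4 scalings and without any 1 library. Mitochondrial scaling gave 21 lower and none higher, and the authors' factors 22 lower and none higher. These scalings moved the median of all genes to -0.553 and -0.745, so a lower call could hardly be lost under them.

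Y1F was lower than WT for 3 genes and higher for 2 (all genes 6.31% lower and 3.42% higher). For PLK1 the change was -1.32 in Y1F and -0.47 in WT, a difference of -0.84 ± 0.18 (adjusted p = 0.00426), and for BUB3 it was -1.004 and -0.26, a difference of -0.74 ± 0.12 (adjusted p = 0.000397). The calls of PLK1 and BUB3 held without any 1 library and, with CCNB1 (-0.44), under all 4 scalings. CDC25C (0.55 ± 0.17, adjusted p = 0.0486) and KIF4A (0.45) were higher in Y1F, with the sign of both turned by the authors' factors (-0.084 and -0.17). With these factors 14 genes were lower and none higher, while the median of all genes was -0.643. Mitochondrial scaling gave 4 lower and none higher, with a median of all genes of -0.144. Both scalings moved all genes down, so a lower call could hardly be lost under them. The CDC25C call ended without any of 7 of the 8 libraries (adjusted p 0.0831 to 0.255), all but the treated WT replicate 1. The count was 2 lower and none higher without the untreated Y1F replicate 2, either treated Y1F library or either untreated WT library, 3 lower and none higher without the untreated Y1F replicate 1 or the treated WT replicate 2, and 5 lower and 3 higher without the treated WT replicate 1.

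**Figure D4:**
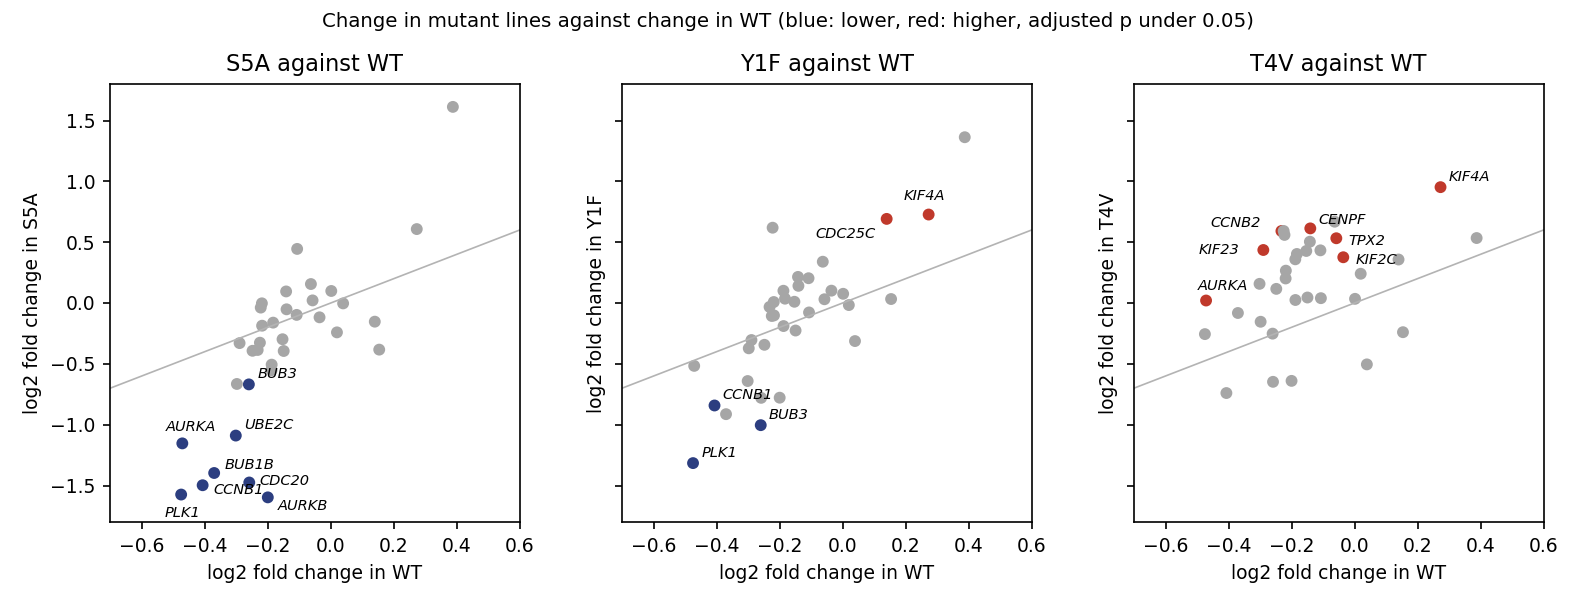
Log2 fold change of the 35 genes in S5A, Y1F and T4V (vertical axes) against WT (horizontal axes), with the diagonal of equal change; blue genes had a lower and red genes a higher change than in WT at an adjusted p under 0.05. AURKB, CDC20, PLK1 and CCNB1 lie furthest below the diagonal in S5A, and CCNB2 lies above it in T4V.

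T4V was higher than WT for 7 genes and lower for none (all genes 1.36% and 2.35%); at an unadjusted p under 0.05 edgeR gave 17 higher and 2 lower, and DESeq2 called 7 higher and 1 lower. For CCNB2 the change was 0.59 in T4V and -0.23 in WT, a difference of 0.82 ± 0.15 (adjusted p = 0.00411). For CENPF the change was 0.61 and -0.14, a difference of 0.75 ± 0.20 (adjusted p = 0.0414), and for KIF23 it was 0.44 and -0.29, a difference of 0.73 ± 0.14 (adjusted p = 0.00788). KIF4A (0.68), TPX2 (0.59), AURKA (0.49) and KIF2C (0.41) were also higher. None of the 7 was called under all 4 scalings: mitochondrial scaling gave 1 lower and none higher, and the authors' factors gave none. CCNB2 had a difference of 0.46 (adjusted p = 0.0694) with mitochondrial scaling and 0.60 (adjusted p = 0.240) with the authors' factors. CCNB2 was the sole call to hold without any 1 library. The count of higher genes was 1 without the untreated T4V replicate 1, the treated T4V replicate 1 or the untreated WT replicate 2, 2 without the treated T4V replicate 2, 3 without the treated WT replicate 2, 4 without the untreated WT replicate 1, 10 without the untreated T4V replicate 2 and 11 without the treated WT replicate 1. The CENPF call ended without 6 of the 8 libraries (adjusted p 0.0950 to 0.284), all but the untreated T4V replicate 2 and the treated WT replicate 1. The KIF23 call ended without the untreated WT replicate 2, the untreated T4V replicate 1 or either treated T4V library (adjusted p 0.0510 to 0.105).

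S2A and S7A differed from WT in few of the genes. In S2A, KIF23 was higher (difference 0.59 ± 0.14, adjusted p = 0.0145) and BUB3 lower (-0.55 ± 0.12, adjusted p = 0.00625), beside 2.87% higher and 4.66% lower of all genes. Mitochondrial and authors' scaling moved the median of all genes there to -0.353 and -0.358, so a lower call could hardly be lost under them. BUB3 was called under all 4 scalings, but not without the untreated S2A replicate 2 (-0.52, adjusted p = 0.0580) or the treated S2A replicate 1 (-0.50, adjusted p = 0.0648), where no gene was called. The KIF23 call ended without any S2A library or the untreated WT replicate 2 (adjusted p 0.0626 to 0.0919), which left BUB3 alone, and lower, without the untreated S2A replicate 1, the treated S2A replicate 2 or the untreated WT replicate 2. In S7A, BUB3 alone was lower (-0.54 ± 0.12, adjusted p = 0.0328) and no gene higher (all genes 0.495% and 0.325%); at an unadjusted p under 0.05 edgeR gave 5 lower and 1 higher, and DESeq2 called 1 lower and none higher. The authors' factors gave 13 lower and none higher in S7A, while the median of all genes was -0.632. The S7A call ended, leaving none, without any 1 of the 8 libraries except the untreated S7A replicate 2 (adjusted p 0.0521 to 0.293). The 5 comparisons of a mutant line with WT share the 4 WT libraries.

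Before treatment, all 35 genes had counts in every library. Per gene length, CDC20 was highest in the 7 untreated lines, at 387 to 524 TPM by group mean, followed by UBE2C (386 to 477 TPM), TOP2A (364 to 469 TPM), TPX2 (378 to 436 TPM) and CCNB1 (309 to 379.9 TPM). Neighbours in this order overlapped in range. CDC25C (34.0 to 41.6 TPM) and CENPE (30.8 to 51.1 TPM) were lowest apart from PRC1 and NUSAP1. In Mock the order differed, with CCNB1 (509 and 496 TPM) and CDC25B (474 and 528 TPM) at the top.

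**Figure D5:**
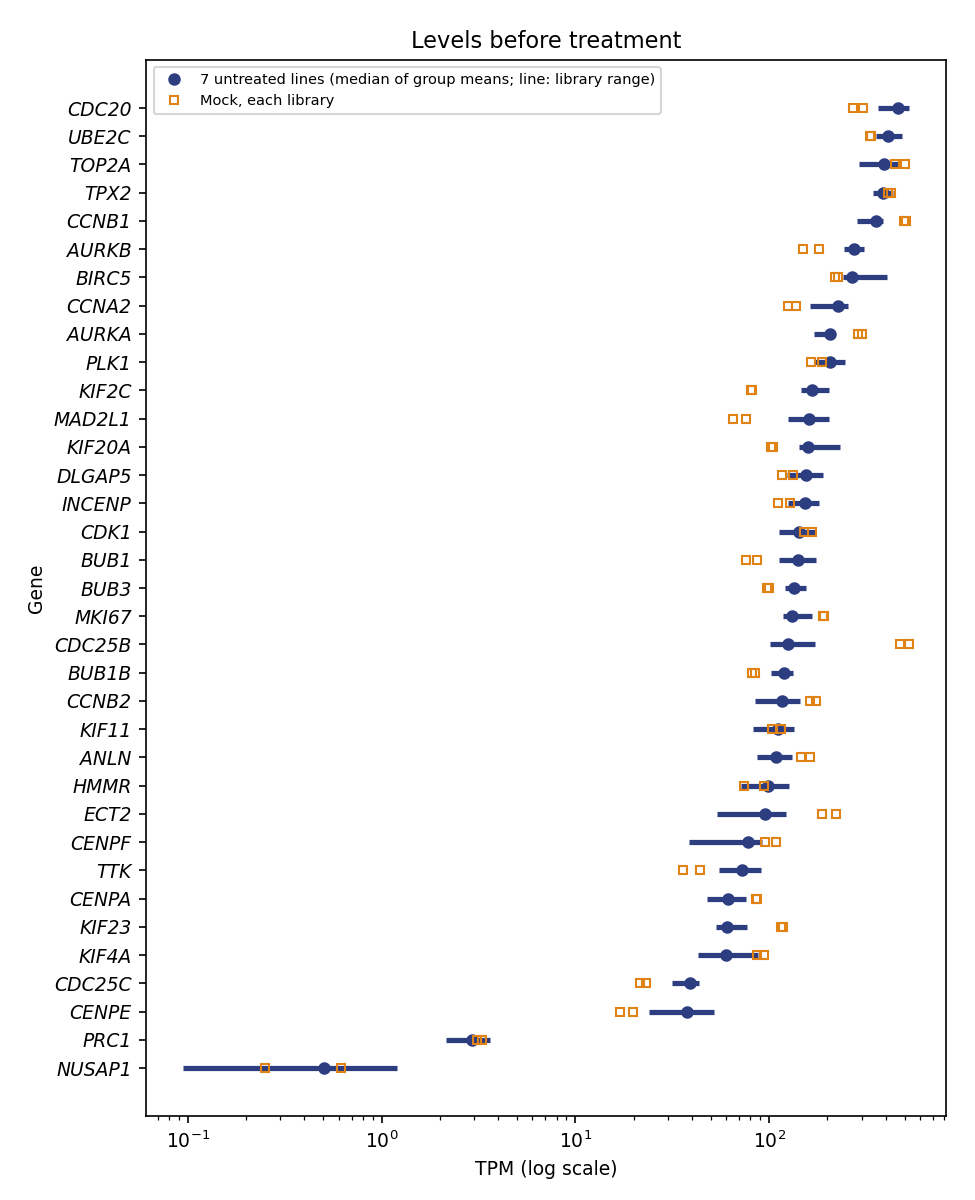
TPM on a log scale (horizontal axis) of the 35 genes (vertical axis) in the 7 untreated lines, as the median of group means (point) and the range over libraries (line), beside Mock. CDC25B is at 474 and 528 TPM in Mock, above its range in the lines.

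Against Mock, the untreated degron line had 16 genes lower and 4 higher, where 31.4% of all genes were lower and 33.4% higher. CDC25B had 116 and 101 CPM in the untreated degron libraries and 593 and 655 CPM in Mock, a log2 difference of -2.52 ± 0.16 (adjusted p = 3.72e-12). ECT2 had 99.3 and 120.4 CPM and, in Mock, 392.1 and 327 CPM, a difference of -1.71 ± 0.22 (adjusted p = 5.8e-07), and KIF23 had 86.6 and 92.6 CPM and, in Mock, 249.2 and 241 CPM, a difference of -1.45 ± 0.10 (adjusted p = 4.1e-11). The groups did not overlap for these 3 genes. MAD2L1 (0.78), KIF2C (0.63), CDC25C (0.31) and BUB1 (0.28) were higher in the degron line. Without the untreated degron replicate 2 the calls of CDC25C (0.17, adjusted p = 0.343) and BUB1 (0.18, adjusted p = 0.291) ended, and CDC25C was 0.46 without the untreated degron replicate 1. Mitochondrial scaling moved the median of all genes to 0.64 and the count of the 35 to 10 lower and 16 higher, with 10 lower and 2 higher calls shared by TMM, DESeq2 and mitochondrial scaling. The degron tag and the marker differences given for Mock cannot be told apart.

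Among the untreated lines, S2A and S7A stood above the degron line in part of the genes. In S2A 13 genes were higher and none lower (all genes 18.3% and 18.0%); at an unadjusted p under 0.05 edgeR gave 14 higher and none lower, and DESeq2 called 11 higher and none lower. KIF4A had 99.7 and 91.3 CPM in untreated S2A and 48.6 and 57.2 CPM in untreated degron libraries, a difference of 0.85 ± 0.099 (adjusted p = 6.38e-07). BIRC5 had 384 and 372 CPM in untreated S2A and 226 and 231 CPM in untreated degron libraries, a difference of 0.73 ± 0.068 (adjusted p = 3.45e-08). CENPE had 125 and 125 CPM in untreated S2A and 59.3 and 87.8 CPM in untreated degron libraries, a difference of 0.77 ± 0.26 (adjusted p = 0.0255). The S2A libraries lay above the degron libraries for all 3, and 10 of the 13 calls were shared by TMM, DESeq2 and mitochondrial scaling. The median of all genes was 0.141 with mitochondrial scaling, so a higher call could hardly be lost under it. The CENPE call ended without the untreated degron replicate 1 (0.51, adjusted p = 0.271), S2A replicate 1 (0.77, adjusted p = 0.0848) or S2A replicate 2 (0.72, adjusted p = 0.120), and the count fell to 6, 8 and 5 without these libraries. MKI67, CCNB2, KIF23, BIRC5 and KIF4A were called without any 1 library.

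In untreated S7A 10 genes were higher and none lower (all genes 8.42% and 10.3%); edgeR gave 13 higher and none lower at an unadjusted p under 0.05, and DESeq2 called 9 higher and none lower. KIF20A had 199.6 and 214 CPM in untreated S7A and 136 and 136 CPM in untreated degron libraries, a difference of 0.60 ± 0.086 (adjusted p = 5.04e-05). KIF4A had 78.3 and 79.8 CPM in untreated S7A and 48.6 and 57.2 CPM in untreated degron libraries, a difference of 0.58 ± 0.099 (adjusted p = 0.000281). CCNA2 had 168 and 159 CPM in untreated S7A and 111 and 122 CPM in untreated degron libraries, a difference of 0.49 ± 0.13 (adjusted p = 0.00951). Untreated S7A lay above untreated degron for each, and 9 of the 10 calls were shared by TMM, DESeq2 and mitochondrial scaling, which alone gave 18. The median of all genes was 0.234 with mitochondrial scaling, so a higher call could hardly be lost under it. The CCNA2 call ended without the untreated degron replicate 1 (0.42, adjusted p = 0.109) or S7A replicate 1 (0.43, adjusted p = 0.108), where 3 and 4 of the 35 genes were called.

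The other untreated lines gave few calls against the degron line. In T4V, KIF4A was higher (62.3 and 70.1 CPM in untreated T4V, a difference of 0.32 ± 0.099, adjusted p = 0.0327) and CENPF lower (120.5 and 158 CPM in untreated T4V and 187 and 224 CPM in untreated degron libraries, a difference of -0.56 ± 0.14, adjusted p = 0.0117), beside 5.69% higher and 7.60% lower of all genes. The CENPF call ended without the untreated degron replicate 2 (-0.43, adjusted p = 0.139) or T4V replicate 1 (-0.34, adjusted p = 0.199), and the KIF4A call, leaving 1 gene called, without the untreated degron replicate 1 (0.21, adjusted p = 0.367) or T4V replicate 2 (0.24, adjusted p = 0.242). In S5A, KIF4A (70.3 and 67.6 CPM in untreated S5A, a difference of 0.38 ± 0.099) and CCNB1 (222 and 214 CPM in untreated S5A and 171 and 192 CPM in untreated degron libraries, a difference of 0.27 ± 0.081) were higher, beside 5.77% of all genes. Both calls ended, leaving CENPA alone, without the untreated degron replicate 1 or either untreated S5A library (adjusted p 0.0563 to 0.238 for KIF4A and 0.106 to 0.360 for CCNB1). CENPA was lower in S5A (22.1 and 22.4 CPM in untreated S5A and 33.5 and 31.6 CPM in untreated degron libraries, a difference of -0.55 ± 0.11, adjusted p = 0.00203), beside 6.98% of all genes, and this call held without any 1 library. Mitochondrial scaling, which moved the median of all genes in these comparisons by 0.034 to 0.31, gave 7 higher and 1 lower in T4V and 19 higher and none lower in S5A.

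No gene was called in untreated Y1F, where 4.31% of all genes were higher and 6.74% lower, or in untreated WT, where 3.83% were higher and 6.37% lower. At an unadjusted p under 0.05 edgeR gave 3 higher and 1 lower in each, and DESeq2 called 1 higher in each; mitochondrial scaling called 3 higher in WT. In Y1F 1 gene was called higher without the untreated degron replicate 2. The 6 comparisons with the untreated degron line share its 2 libraries.

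In the authors' deposited table, made with their own scaling, 33 of the 35 genes fell in S5A, 32 in S7A, 32 in the degron line, 30 in Y1F, 27 in S2A, 9 in T4V and none in WT at an adjusted p under 0.05, and none rose. The share of all genes with an adjusted p that fell in the authors' deposited table was 49.0%, 47.8%, 47.1%, 49.5%, 39.7%, 32.8% and 0.0296% in these lines in that order, and the share that rose was 4.04%, 2.34%, 2.54%, 2.90%, 3.20%, 1.47% and 0.0740%. The factors solved from the authors' deposited table put the treated library totals at 49.7% of the untreated ones in S5A, 56.1% in S7A, 56.5% in the degron line, 51.2% in Y1F, 71.5% in S2A, 75.4% in T4V and 84.3% in WT.

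Of 81 other genes of the same pathway, all tested, 26 fell and 10 rose in S5A, 20 and 11 in S7A, 22 and 13 in the degron line, 21 and 9 in Y1F, 14 and 12 in S2A, 9 and 25 in T4V, and 2 and none in WT. Of all tested genes 24.2% fell and 25.5% rose in S5A, 17.1% and 17.8% in S7A, and 21.4% and 23.1% in the degron line. The shares were 21.0% and 23.1% in Y1F, 18.2% and 17.0% in S2A, 14.0% and 14.8% in T4V, and 1.84% and 3.09% in WT. The falls in S2A, T4V and WT were near these shares. The counts of the 81 genes moved with the scaling as those of the 35 genes did. In T4V 41 fell and 1 rose with mitochondrial scaling and 28 fell and none rose with the authors' factors, beside 48.3% and 33.7% of all genes fallen. In S5A 68 and 73 fell with these scalings and none rose, beside 56.8% and 62.5% of all genes fallen. NCAPH, a condensin subunit, and CHEK2, a DNA damage checkpoint kinase, fell in all 7 lines. NCAPH had 34.5 and 32.5 CPM in the treated Y1F libraries, against 128 and 129.8 CPM in the untreated Y1F libraries, and its log2 changes ran from -1.94 in Y1F to -0.51 in WT; those of CHEK2 ran from -1.25 in S5A to -0.60 in WT. The kinetochore genes SPC25 and CENPN and the APC/C subunit gene ANAPC7 fell in all lines but WT, with changes in the degron line of -1.10, -0.71 and -0.28. The kinases WEE1 and PKMYT1, which inhibit CDK1, each fell in 5 lines (-1.06 and -1.09 in the degron line), as did RBL1 and RBL2, pocket proteins of the DREAM repressor (-0.95 and -0.51), and the APC/C subunit genes CDC26 and ANAPC13 (-0.57 and -0.65). ZW10, a checkpoint protein of the kinetochore, fell in 4 lines (-0.52 in the degron line).

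Others of the pathway rose under TMM scaling, few of them also under the others. CDCA5, which encodes the cohesion protein sororin, rose in all lines but WT, from 0.39 in Y1F to 0.62 in S2A; with the authors' factors it fell in the degron line (-0.44), Y1F (-0.48) and S5A (-0.44). LIN52, a MuvB subunit, the centrosome kinase gene NEK2 and the spindle gene SPAG5 each rose in 5 lines, with T4V values of 0.30, 0.95 and 0.79; the T4V value of LIN52 turned sign under mitochondrial scaling (-0.29) and the authors' factors (-0.16), while NEK2 stayed called with mitochondrial scaling (0.36). In Y1F, T4V and S5A the kinesin gene KIF18A rose (0.82, 0.89 and 0.87), with the sign turned by the authors' factors in Y1F (-0.053) and S5A (-0.084). The condensin II subunit gene NCAPG2 rose in 4 lines (0.64 in S5A, where mitochondrial scaling gave -0.10 and the authors' factors gave -0.31), while NCAPD2, of condensin I, fell in the degron line and S5A (-0.21 and -0.34) and rose in T4V (0.29, turned to -0.30 and -0.16). The separase gene ESPL1 rose in the degron line and T4V (0.36 and 0.48, turned to -0.12 and -0.11 with mitochondrial scaling) and fell in S5A (-0.61), and PTTG1, which encodes the separase inhibitor securin, rose in S2A and T4V (0.50 and 0.46), where mitochondrial scaling gave -0.0010 and -0.12. In T4V the list of spindle and cytokinesis genes had 9 of 13 risen and none fallen under TMM scaling, beside 14.8% of all genes risen, but 1 of 13 risen with mitochondrial scaling and none with the authors' factors, again with none fallen.

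Across the 35 genes, log2 changes of pairs of treated lines had a Pearson r of 0.374 to 0.923 over the 21 pairs, against 0.587 to 0.802 over all tested genes. T4V had the lowest values, 0.374 with WT and 0.387 with S7A, but 0.727 with Y1F. WT had 0.909 with S7A, 0.854 with the degron line and 0.671 with S2A, and S2A had 0.856 with the degron line. This is a description without a test, since genes are not independent replicates.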

How the data were processed

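The deposited libraries are poly(A) RNA from TRIzol extracts, prepared with a VAHTS kit after fly S2 cells had been added at 10% and sequenced as 150 bp pairs, per the labels' protocols. Counts are whole reads per gene as the authors deposited them. Per the submitters' processing notes the tools were Trim Galore 0.6.2, STAR 2.7.3a, featureCounts 2.0.1 and DESeq2 1.24.0, with the builds hg38 and dm6. No source used here gives the annotation release or the strand setting, so reads of overlapping or antisense genes cannot be kept apart. TPM values, deposited by the authors, are scaled to library and gene length and summed to 998366 to 999347 in each library. For every line the authors also deposited base means (a signal: the counts averaged after division by library factors), log2 fold changes and p-values. The library factors were solved from these base means, and how the authors obtained them is not given in those sources. No fly gene is listed in the count tables used here.

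For the tests, edgeR 4.0.16 under R 4.3.3 fitted robust quasi-likelihood models with TMM factors to the genes that passed filterByExpr (minimum count 10, minimum total 15; 19982 passed). Each group had 1 coefficient, and all 30 libraries entered, which gave 15 residual degrees of freedom and a common dispersion of 0.0122. Each of 20 comparisons (7 changes on treatment, 6 differences in change, 7 between untreated groups) was adjusted over all its tested genes after Benjamini and Hochberg, with calls at an adjusted p under 0.05. SE was obtained by dividing the log2 fold change by the root of F. CPM were computed with TMM factors. The procedure was tested on simulated counts with 200 altered genes.

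Alternatives were 3 further scalings (DESeq2 size factors, the 13 mitochondrial mRNAs, the authors' factors), the Wald test of DESeq2 1.42.0, 2 other filters on low counts, the replicate number as a block, fits of only the groups compared and the omission of each library. Omission of the 2 Mock libraries was chosen after seeing the data. Replicates differed by more than sampling noise (chi-square per degree of freedom 1.29 to 27.7), so none was merged. The largest values were 27.7 in untreated T4V, 25.9 in treated WT, 19.9 in treated S7A and 19.4 in treated degron libraries. A spread shared over the groups does not follow these differences.

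The 35 genes and the lists were chosen with earlier results of these data known. Any of the 35 may be named; values by library are given for the called genes with the largest absolute log2 fold change, up to 5 per line and 3 per other comparison, and 3 genes called in most lines are named from each list of other pathway genes. Gene spans came from GENCODE release 29 and promoter windows from RefSeq (GRCh38.p14), which lacked 6 of the 35 genes. Figures were drawn with matplotlib 3.10.9.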

Additional observations from a re-analysis of the deposited data

Results flagged for a closer look

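The changes of 30 gene and line pairs differed between 2 lines in edgeR's test of the difference itself (adjusted p under 0.05), given here as differences in log2 change. In WT minus degron they were 1.11 for PLK1, 0.91 for BUB3, 0.73 for CENPA, 0.73 for BUB1B, 0.59 for AURKA, 0.47 for CCNB1 and -0.52 for KIF4A. In Y1F minus WT they were -0.84 for PLK1, -0.74 for BUB3, -0.44 for CCNB1, 0.55 for CDC25C and 0.45 for KIF4A. In S2A minus WT they were -0.55 for BUB3 and 0.59 for KIF23. In T4V minus WT they were 0.82 for CCNB2, 0.75 for CENPF, 0.73 for KIF23, 0.68 for KIF4A, 0.59 for TPX2, 0.49 for AURKA and 0.41 for KIF2C. In S5A minus WT they were -1.40 for AURKB, -1.22 for CDC20, -1.10 for PLK1, -1.09 for CCNB1, -1.03 for BUB1B, -0.79 for UBE2C, -0.68 for AURKA and -0.41 for BUB3. In S7A minus WT the difference was -0.54 for BUB3.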

How the results depend on the processing

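Of the 92 calls on treatment, 85 kept direction and threshold with DESeq2's Wald test, 85 with DESeq2 size factors, 73 with mitochondrial scaling (10 turned sign), 71 with the authors' factors (12 turned), 81 without a low-count filter and 67 in fits of only the groups compared. Counts of the 35 genes called moved by over 1.5 times as follows. Mitochondrial scaling gave 28 in the degron line, 21 in Y1F, 26 in S2A, 32 in S5A, 28 in S7A, 12 in WT, 21 for S5A minus WT, 1 for T4V minus WT and, untreated, 8 in T4V, 19 in S5A, 18 in S7A and 3 in WT. The authors' factors gave 32 in the degron line, 31 in Y1F, 22 in S2A, 32 in S5A, 33 in S7A, 16 for WT minus degron and, against WT, 14 for Y1F, 1 for S2A, 0 for T4V, 22 for S5A and 13 for S7A. Fits of only the groups compared gave 18 in S2A, 8 in T4V, 9 in S7A, 0 in WT, 2 for WT minus degron, 1 for Y1F, 1 for S2A, 0 for T4V and 0 for S7A minus WT, and, untreated, 0 in T4V and 3 in WT. A mean of at least 5 CPM gave 4 for S2A minus WT and 1 in untreated Y1F. No low-count filter gave 0 for S7A minus WT and, untreated, 1 in T4V, 1 in S5A and 2 in WT. DESeq2's Wald test gave 1 in untreated Y1F and 1 in untreated WT, and DESeq2 size factors 0 for S7A minus WT. Without the 2 Mock libraries the counts were 3 for Y1F, 4 for T4V and 0 for S7A minus WT. The cause was not tested in any of these.

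Directions that turned were, with mitochondrial scaling, MKI67 (-0.24) and BIRC5 (-0.22) in the degron line, KIF23 in S2A (-0.19), KIF2C (-0.21), CDC25C (-0.22), MKI67 (-0.35), KIF23 (-0.14), TOP2A (-0.076) and TPX2 (-0.053) in T4V, KIF4A in S5A (-0.14), and BIRC5 (0.33) and TPX2 (0.022) in untreated degron against Mock. With the authors' factors they were MKI67 (-0.62), BIRC5 (-0.60) and KIF4A (-0.072) in the degron line, CDC25C (-0.19) and KIF4A (-0.15) in Y1F, KIF23 in S2A (-0.21), KIF2C (-0.082), CDC25C (-0.11), MKI67 (-0.22) and KIF23 (-0.033) in T4V, KIF4A in S5A (-0.35) and S7A (-0.23), KIF4A for WT minus degron (0.097), and CDC25C (-0.084) and KIF4A (-0.17) for Y1F minus WT.

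With 1 library left out, the counts called ranged from 13 to 15 in the degron line, 10 to 15 in Y1F, 5 to 7 in S2A, 7 to 20 in T4V, 13 to 16 in S5A, 11 to 16 in S7A and 0 to 3 in WT. For differences they ranged from 5 to 9 for WT minus degron and, against WT, 2 to 8 for Y1F, 0 to 2 for S2A, 1 to 11 for T4V, 7 to 10 for S5A and 0 to 1 for S7A. Untreated, they ranged from 18 to 20 for degron against Mock, 0 to 1 for Y1F, 5 to 12 for S2A, 1 to 3 for T4V, 1 to 4 for S5A and 3 to 9 for S7A, and stayed 0 for WT. A group left with 1 library is assumed to vary like the others.

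Replicate numbers carry no stated pairing, and same-numbered libraries correlated from -0.44 to 0.35 in their deviations. With the replicate number as a block 3 genes were called for Y1F minus WT and 4 for T4V minus WT; the 7 counts on treatment stayed at 16, 12, 9, 15, 19, 18 and 3 in the order degron, Y1F, S2A, T4V, S5A, S7A and WT.

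With 2 libraries a group, changes within the spread between them were not detectable, and NUSAP1 and PRC1 had the fewest counts behind them.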
